A study of Brassica rapa with 6 samples.

Results

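The small RNAs described here are the sequences of Chinese cabbage (Brassica rapa) that carry names of the families miR9552 to miR9569, with miR9563 left out. They were taken from the table of mature sequences by name alone: a sequence was a member when its name held a family number in that range, and rows with the same sequence were counted once. This gave 25 of the 1011 distinct sequences of the table, in 13 families and from 14 named hairpins, and all 25 carry the Brassica rapa prefix bra. Small RNA was sequenced from the petiole, the stalk of a leaf, and from the leaf, with 3 libraries each. All plants were wild type and grown under regular greenhouse conditions, and the labels give neither a treatment nor an age. Nothing in the labels says that the 3 libraries of a tissue came from separate plants, so p-values here reflect no more than the spread among those libraries, which may be technical. The tissue labels were not checked against markers, as the table holds small RNAs alone. Since whole tissue was used, fewer cells of a type and less RNA per cell cannot be told apart in any difference given here.

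A plant microRNA (miRNA) is cut by a Dicer-like enzyme from the stem of a folded transcript, the hairpin. The cut releases a short duplex of the 5p and the 3p arm, usually with 2 unpaired bases at each 3′ end. One arm is loaded into an Argonaute protein and guides the cleavage or silencing of transcripts that match it closely, while the other arm is mostly lost. ARGONAUTE1 prefers sequences of 21 bases that begin with U, written T in the table, whereas sequences of 24 bases that begin with A are typical of ARGONAUTE4 and of DNA methylation. Families found in few species are as a rule less abundant than the families shared by all land plants, and some of their hairpins are long and almost fully paired. The labels and the table name no targets of the families described here.

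The sequences that carry the tissue differences and the arm pairs are shown 5′ to 3′ as the table gives them, with the seed, bases 2 to 8, in capitals. In the names, L and R give bases gained or lost at the left and right end of the annotated form, and ss gives substitutions. Entries with p5 or p3 are named by an arm of the hairpin and do not carry the name of an annotated mature form. For miR9566 and miR9562 the entries of both arms are named so. The first group holds sequences of miR9566, miR9552b, miR9568 and miR9569, whose family sums were called higher or lower in petiole with at least 1 library of the lower tissue listed at 0:
bra-MIR9566-p5: aCAAATACttaggctctctct
bra-MIR9566-p3: tTCTTTTAcctagagagagcc
bra-miR9552b-3p: tGACCGAGtagaccgatagtc
bra-MIR9552b-p5: cGGTGATGaagaagctagcgc
bra-miR9568-3p: tCATCGTAagagatctgcatt
bra-miR9569-3p: aCACAGGAacaatactaactcatt
bra-miR9569-5p: tGAGTTATcattggtcttgtg
The second group holds the arms of miR9557, miR9554 and miR9555a, shown because they pair along their length:
bra-miR9557-5p: tTTTGCGTttcaactcggtcc
bra-miR9557-3p_1ss14GA: gCTGAGTTggaacacaaaatc
bra-miR9554-5p_L+3_1ss21AG: cAGGAATGatacttggatatgatc
bra-miR9554-3p_1ss2CT: tTATATCCaagtatcattcct
bra-miR9555a-5p_L-1R+4_1ss21CT: tCTAAGCTttacgggaaactcaac
bra-miR9555a-3p_L+3: gAGTTTCCcgtaaagcttagaacc

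The members were of 2 main sizes. Of the 25 sequences, 13 had 21 bases (52%), 10 had 24 bases (40%) and 2 had 22 bases. Among the 437 other sequences with a family name, 40.7% had 21 bases and 19.7% had 24 bases, and among the 549 predicted sequences 17.7% had 21 bases and 65.0% had 24 bases. T was the first base of 12 members and A of 9, against 2 each for C and G. By count of sequences, the first base differed with the size. T began 9 of the 13 members of 21 bases, the form typical of ARGONAUTE1, and A began 6 of the 10 members of 24 bases. Those beginning with A included every form of the rare miR9555b. Among the 5 members of 24 bases with a mean of at least 5, A began 1. By arm, 15 members were from the 5p and 10 from the 3p side. By name, 7 were exact annotated forms, 9 were annotated forms with changed ends or substitutions, and 9 were p5 or p3 entries without the name of an annotated form. These counts describe sequences and not reads, and no test was run on them.

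**Figure D1:**
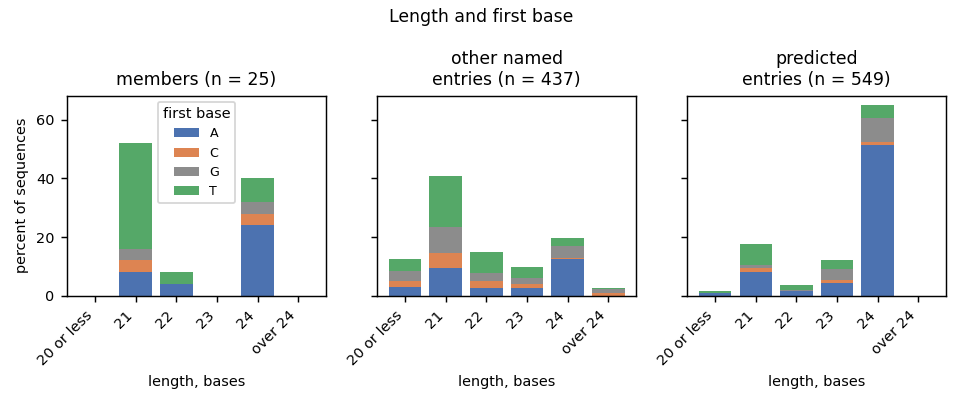
Share of sequences (y axis, percent) by length in bases (x axis) and first base (colours), for the 25 members, the 437 other sequences with a family name and the 549 predicted sequences. The members fall on 21, 22 and 24 bases, with T leading at 21 and A leading at 24.

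The 25 members had 24 different seeds. The 1 seed held by more than 1 member, TGTAATT, belonged to the miR9555b forms bra-miR9555b-5p_L+1R+2_2ss11GC21GA and bra-miR9555b-5p_L+1R+2_1ss11GA. With entries outside the group, 3 seeds were shared: that of miR9555b with the predicted PC-5p-273137_11, that of bra-miR9554-3p_1ss2CT with the predicted PC-3p-272798_11, and that of bra-miR9554-5p_L+3_1ss21AG with aly-miR166a-5p_L+2, a 5p form of miR166. A shared seed is a match of 7 letters. Plant miRNAs recognise targets over most of their length.

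Values are normalized read counts as the authors scaled them. Summed over the table they came to 436475 ± 10506 in petiole and 789728 ± 15787 in leaf (SD, n = 3 each). Low values were spaced by a constant amount within a library, which was taken as 1 read. On that scale the table totals stood for 457195 to 474192 reads in petiole and 729593 to 771262 reads in leaf. Replicates of a tissue correlated at 0.936 to 0.96 on the log2 scale across sequences, and libraries of different tissues at 0.709 to 0.736. Sequences are not independent replicates. Because the leaf totals averaged 1.81 times the petiole totals, comparisons are given on the deposited scale, and also with every library rescaled to the same total where that changes a call. Rescaling raises petiole values against leaf values.

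The members were rare. They summed to 430, 554 and 524 in the petiole libraries and to 537, 532 and 497 in the leaf libraries. As a share of all normalized counts this was 0.115 ± 0.0135% in petiole and 0.0660 ± 0.0017% in leaf (SD, n = 3 each). The lowest petiole share, 0.0995%, lay above the highest leaf share, 0.0677%. The sums themselves overlapped between tissues, and the share divides them by table totals that averaged 1.81 times as high in leaf. A single sequence, bra-miR9557-5p, held 43.4 ± 3.96% of the members' sum in petiole and 42.5 ± 3.28% in leaf (SD, n = 3 each). Even this sequence ranked 99th of the 1011 by mean count. By size, the 13 members of 21 bases summed to 400 ± 36.4 in petiole and 416 ± 7.85 in leaf, and the 10 members of 24 bases to 101 ± 27.9 in petiole and 99.8 ± 14.7 in leaf (SD, n = 3 each). On the deposited scale the petiole-to-leaf ratio of these sums was 0.961 for 21 bases and 1.01 for 24 bases. Over the whole table the same ratios were 0.579 and 0.971.

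Most members came and went between libraries. Of the 150 values of the 25 members, 64 were listed at 0. Of the 86 values above 0, 33 stood for at most 10 reads and 14 for exactly 5 reads. A single member value above 0 lay under 5 reads, so a value of 0 says that a sequence is listed at 0 and not that it is absent. All 6 libraries listed 5 members, or 20%, against 59.3% of the other sequences with a family name and 34.1% of predicted sequences. Every petiole library and no leaf library listed 1 member (4%, against 5.49% of other named sequences), and every leaf library and no petiole library listed 5 members (20%, against 6.18%). Of the latter, bra-miR9558-3p, bra-MIR9562-p3 and bra-miR9569-5p had at most 6, 6 and 12 reads, and the petiole libraries held fewer reads in all. In only 1 or 2 libraries of a single tissue, petiole listed 5 members (20%, against 4.8%) and leaf 2 (8%, against 5.03%). The part of depth in these counts was not tested.

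**Figure D2:**
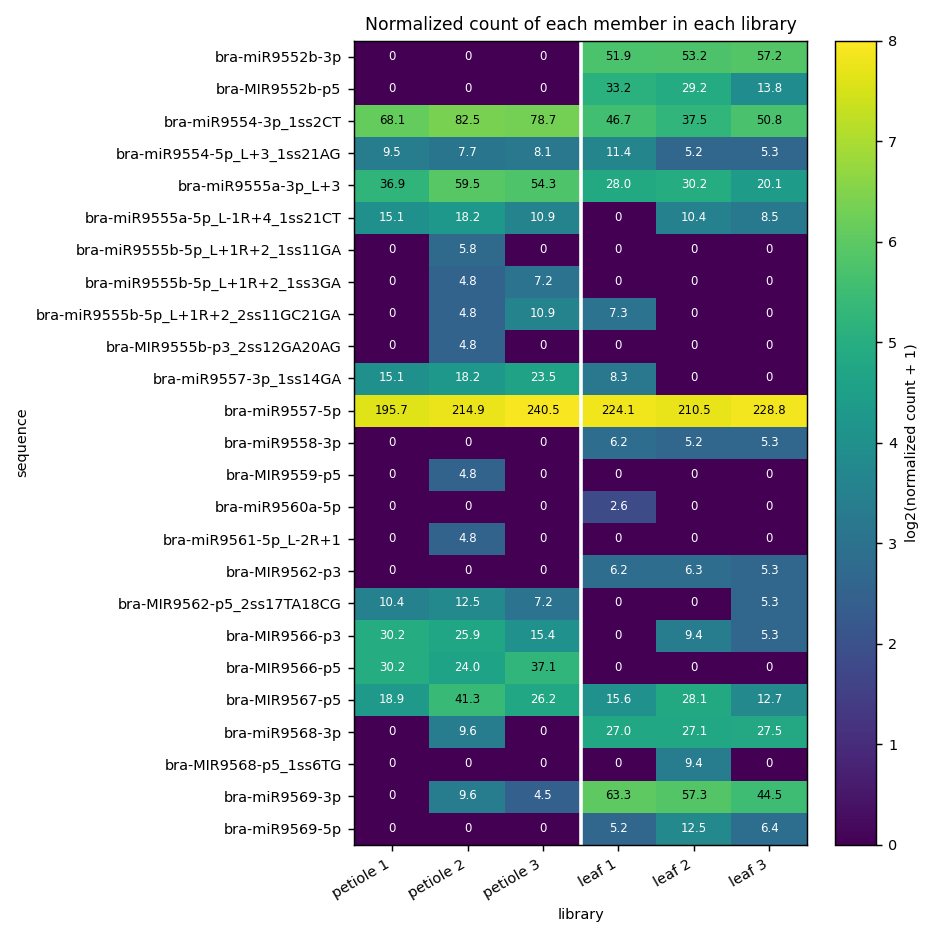
Normalized count of each of the 25 members (rows) in each library (columns, petiole left of leaf), printed in the cells and coloured by log2(normalized count + 1). bra-miR9557-5p is the brightest row in all 6 libraries, bra-MIR9566-p5 is listed at 0 in the 3 leaf libraries, and both miR9552b sequences are listed at 0 in the 3 petiole libraries.

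For the test, log2(value + 1) was compared between tissues with limma over the whole table, for sequences whose mean over all libraries reached 5. Of the 25 members 14 passed that filter, from 9 families, and 11 did not. The lowest mean that passed was 5.90, of bra-MIR9562-p5_2ss17TA18CG, and the highest that did not was 4.01, of bra-miR9569-5p. On the deposited scale 6 members were called higher and 4 lower in petiole at a limma adjusted p under 0.05. Over all 601 sequences tested, 21.3% were called higher and 28.3% lower, 49.6% in all. The petiole values lay wholly above the leaf values for 7 of the 14 members and wholly below for 4, against 28.5% above and 31.3% below over all sequences tested, 59.7% in all. The 10 calls among 14 are not a rate for the group, since members that are high in a single tissue passed the filter through that tissue and had to differ. The median difference of the 14 was 0.68 on the log2(value + 1) scale, and that of all sequences tested was 0.18. With equal totals all 6 higher and all 4 lower calls kept their direction and the other 4 members were called higher too, where 53.4% of all sequences were called higher and 17.8% lower, 71.2% in all, with a median of 1.51 for members and 0.97 for all. After quantile normalization 5 members were called higher and 4 lower, against 23% and 24.3% of all sequences, 47.3% in all; 4 of the higher and all 4 lower calls were shared with the deposited scale. Summed by family, 3 of 9 tested families were called higher and 3 lower, against 27.5% and 53.8% of 80 families, 81.2% in all. With equal totals 6 families were higher and 3 lower, against 48.8% and 38.8%, 87.5% in all. After quantile normalization 4 families were higher and 3 lower, against 33.8% and 46.2%, 80% in all. Of the 10 member calls on the deposited scale, 5 also passed whichever single library was left out. Among these 5 were bra-MIR9566-p5 and both miR9552b sequences, which were listed at 0 in every library of a tissue and had to differ. Another, bra-miR9569-3p, reached the filter through leaf.

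**Figure D3:**
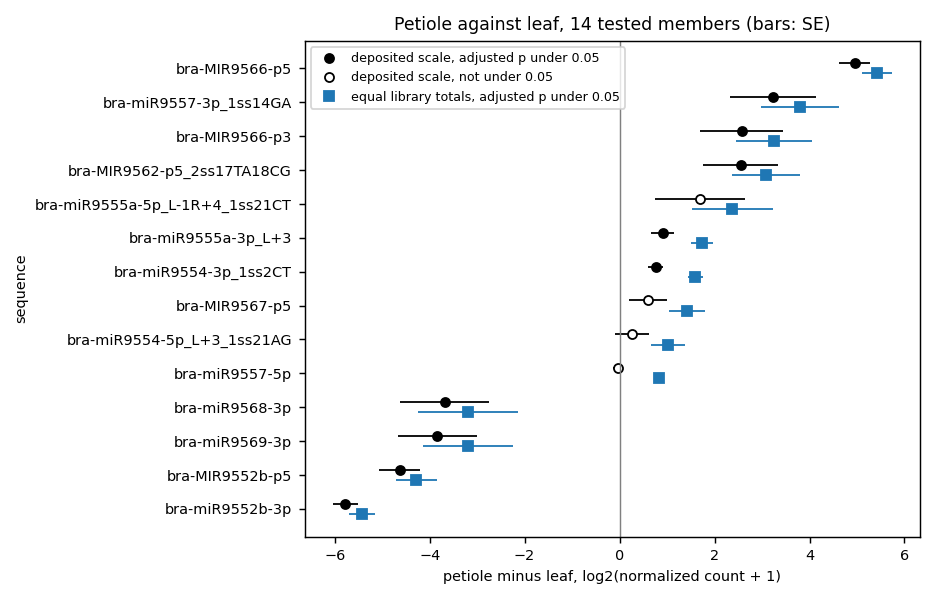
Petiole minus leaf difference on the log2(normalized count + 1) scale (x axis, points with SE bars) of the 14 tested members (y axis), on the deposited scale (black circles) and with equal library totals (blue squares). Filled symbols have a limma adjusted p under 0.05. Members listed at 0 in a tissue have a difference that depends on the added 1. The squares lie right of the circles for each member, and the 4 lower calls stay left of 0.

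The miR9566 family was higher in petiole, with its 5p arm listed in petiole alone and a call at the threshold for its 3p arm. The sequence bra-MIR9566-p5 had 30.2, 23.98 and 37.1 normalized counts in the petiole libraries, standing for 32, 25 and 41 reads, and was listed at 0 in all 3 leaf libraries. The petiole values had a coefficient of variation of 21.5%, and the tissues did not overlap. It was called higher (limma adjusted p = 2.6e-05, and 1.84e-05 with equal totals), and it stayed called whichever library was left out. Having passed the filter through petiole alone, it had to differ, so the call is no support beyond the listed values. Its 3p counterpart bra-MIR9566-p3 had 30.2, 25.9 and 15.4 in petiole, against 0, 9.38 and 5.30 in leaf. All 3 petiole values were above all 3 leaf values. That call was at the edge of the threshold (limma adjusted p = 0.0494) and was lost without petiole replicate 1, 2 or 3 or leaf replicate 3, with adjusted p up to 0.143. It was also lost after quantile normalization (0.073), with 0.5 added in place of 1 (0.0751), without the filter (0.0651) and without the trend (0.0698), each a limma adjusted p. Summed over the family, miR9566 averaged 54.3 ± 5.54 in petiole, while the leaf libraries held 0, 9.38 and 5.30 (SD, n = 3; limma adjusted p = 0.0057 over the 80 families tested). Without leaf replicate 1, the library at 0, the family difference was 2.77 on the log2 scale and still passed. The sum holds bra-MIR9566-p5, which had to differ. Its leaf mean, like that of bra-MIR9566-p3, was 4.89, so the sum and the 3p sequence reached the filter through petiole. The family call is therefore no support beyond the listed values.

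In the opposite direction, both miR9552b sequences were listed in leaf alone. The annotated bra-miR9552b-3p was listed at 0 in all petiole libraries and had 51.9, 53.2 and 57.2 normalized counts in leaf, standing for 50, 51 and 54 reads. Its leaf values had a coefficient of variation of 5.14%. The 5p entry bra-MIR9552b-p5 was likewise listed at 0 in petiole, with 33.2, 29.2 and 13.8 in leaf. Both were called lower (limma adjusted p = 6.19e-06 for the 3p and 0.000144 for the 5p sequence) and stayed called whichever library was left out and with equal totals. As both passed the filter through leaf alone, they had to differ, and these calls are no support beyond the listed values. The family sum, 79.5 ± 7.48 in leaf (SD, n = 3), was called lower as well (limma adjusted p = 1e-06), from the same values.

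The families miR9569 and miR9568 were likewise lower in petiole. The 24-base bra-miR9569-3p had 0, 9.59 and 4.52 normalized counts in petiole, against 63.3, 57.3 and 44.5 in leaf. The highest petiole value lay far below the lowest leaf value. The call (limma adjusted p = 0.00957) held without any one library, with adjusted p up to 0.0386. With a petiole mean of 4.70, bra-miR9569-3p reached the filter through leaf, so the call is no support beyond the listed values. Its 21-base partner bra-miR9569-5p was listed at 0 in petiole and had 5.19, 12.5 and 6.35 in leaf, and it fell short of the filter. For bra-miR9568-3p the petiole libraries held 0, 9.59 and 0 and the leaf libraries 27.0, 27.1 and 27.5, or 26 reads each. The leaf values had a coefficient of variation of 1.09%, while the petiole values rested on the 10 reads of petiole replicate 2. It was called lower (limma adjusted p = 0.0177). The call was lost without petiole replicate 1 or 3 or leaf replicate 2 or 3, when the adjusted p was up to 0.0651. The petiole mean was 3.20, so this sequence too reached the filter through leaf. The sums of both families were called lower, miR9569 with a limma adjusted p of 0.00409 and miR9568 with 0.00827. Both calls held without any one library. The petiole means of the sums were 4.70 for miR9569 and 3.20 for miR9568, so both reached the filter through leaf. These calls are no support beyond the listed values. The miR9569 sum includes bra-miR9569-5p, listed at 0 in petiole. The miR9568 sum held the values of bra-miR9568-3p, plus 9 reads of bra-MIR9568-p5_1ss6TG in leaf replicate 2. Its call is therefore not separate from that of bra-miR9568-3p, and it was adjusted over families in place of sequences.

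The hairpin of miR9557 held the most abundant member. The annotated bra-miR9557-5p had 196, 215 and 241 normalized counts in petiole, against 224, 211 and 229 in leaf. The tissues overlapped, and the difference of -0.03 ± 0.10 on the log2 scale (SE) did not pass (limma adjusted p = 0.814). The result turned with the scale: with equal totals its mean was 305 ± 34.6 in petiole and 172 ± 10.5 in leaf (SD, n = 3 each), a 1.78-fold difference that was called higher (limma adjusted p = 0.000656). In reads it had 207, 224 and 266 in petiole and 216, 202 and 216 in leaf, while the petiole libraries held fewer reads in all. The miR9557 sum, 236 ± 26.7 in petiole and 224 ± 11.7 in leaf (SD, n = 3 each), did not pass on the deposited scale either (limma adjusted p = 0.541). It was called higher with equal totals, by 0.92 on the log2 scale (limma adjusted p = 0.000349), and after quantile normalization, by 0.82 (limma adjusted p = 0.00163).

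The 3p arm of miR9557, unlike its 5p arm, was called on the deposited scale. The 3p form bra-miR9557-3p_1ss14GA had 15.1, 18.2 and 23.5 in petiole, against 8.30, 0 and 0 in leaf, with no overlap, and was called higher (limma adjusted p = 0.0262). The call was lost without any one of petiole replicates 1 to 3 or leaf replicates 2 and 3, with adjusted p up to 0.0838. With a leaf mean of 2.77, this form reached the filter through petiole, so the call is no support beyond the listed values. The log2 ratio of 5p to 3p, each with 1 added, was 3.47 ± 0.16 in petiole and 6.72 ± 1.84 in leaf (SD, n = 3 each). This ratio was lower in petiole (limma adjusted p = 0.0472 over 57 hairpins with an entry for each arm, of which 29.8% were called lower and 42.1% in all), a call lost without any single library except leaf replicate 1. The leaf ratio depends on the added 1, as 2 leaf libraries listed the 3p arm at 0.

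The miR9554 and miR9555a hairpins were listed in both tissues and led by their 3p arms. The sequence bra-miR9554-3p_1ss2CT averaged 76.4 ± 7.48 in petiole and 45.01 ± 6.81 in leaf (SD, n = 3 each), from 68.1, 82.5 and 78.7 in petiole and 46.7, 37.5 and 50.8 in leaf. The tissues did not overlap. The 1.70-fold difference, 0.76 ± 0.16 on the log2 scale (SE), was called higher (limma adjusted p = 0.00751), and it passed without any one library and with equal totals, where it was 3.06-fold. Its 5p partner bra-miR9554-5p_L+3_1ss21AG had 9.45, 7.67 and 8.14 in petiole, against 11.4, 5.21 and 5.30 in leaf. Those values overlapped and did not pass (limma adjusted p = 0.574). With equal totals the 5p sequence was 2.09-fold higher and passed (limma adjusted p = 0.0411).

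Of miR9555, the 24-base bra-miR9555a-3p_L+3 averaged 50.2 ± 11.8 in petiole and 26.1 ± 5.31 in leaf (SD, n = 3 each). The single values were 36.9, 59.5 and 54.3 in petiole and 28.0, 30.2 and 20.1 in leaf, so the lowest petiole library lay above the highest leaf library. The 1.92-fold difference was called higher (limma adjusted p = 0.0232), and the call was lost without petiole replicate 2 or 3 or leaf replicate 3, with adjusted p up to 0.0797. The 5p arm bra-miR9555a-5p_L-1R+4_1ss21CT had 15.1, 18.2 and 10.9 in petiole, against 0, 10.4 and 8.47 in leaf, and did not pass (limma adjusted p = 0.182). With equal totals it was called higher (limma adjusted p = 0.0442). The 4 miR9555b sequences stood at 12 reads or fewer in every library. Summed over all 6 sequences, miR9555 averaged 77.7 ± 23.4 in petiole and 34.8 ± 6.04 in leaf (SD, n = 3 each), and the sum was called higher (limma adjusted p = 0.00827) also without any one library. The miR9554 sum was called higher as well (limma adjusted p = 0.00677).

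The sums of miR9562 and miR9567 did not pass on the deposited scale. The miR9562 arms were listed mainly in opposite tissues: bra-MIR9562-p5_2ss17TA18CG had 10.4, 12.5 and 7.23 in petiole and 0, 0 and 5.30 in leaf, while bra-MIR9562-p3 was listed at 0 in petiole and had 6.22, 6.25 and 5.30 in leaf. All these values were of 13 reads or fewer. With a leaf mean of 1.77, the p5 sequence reached the filter through petiole. The p5 call (limma adjusted p = 0.0361) was lost without petiole replicate 1 or 3 or leaf replicate 1 or 2, with adjusted p up to 0.102, and also after quantile normalization (0.0557) and without the filter (0.0518). Without petiole replicate 2 it fell below the filter and was not tested, as was the p3 sequence in the full set. The ratio of p5 to p3 was called higher in petiole (limma adjusted p = 0.00597, where 12.3% of hairpins were called higher). It stayed called without any one library. Its direction follows from the arms listed at 0, p3 in every petiole library and p5 in leaf replicates 1 and 2. The call is therefore no support beyond the listed values. The size of the difference depends on the added 1, as at least 1 arm was listed at 0 in 5 of 6 libraries. It was 5.34 on the log2 scale with 1 added and 2.35 with 5 added. The family sum did not pass (limma adjusted p = 0.353), but was called higher with equal totals (limma adjusted p = 0.0171). The single miR9567 sequence, bra-MIR9567-p5, had 18.9, 41.3 and 26.2 in petiole, against 15.6, 28.1 and 12.7 in leaf. Replicate 2 was the highest of both tissues, the values overlapped, and the difference did not pass (limma adjusted p = 0.247). With equal totals it was called higher, by 1.41 on the log2 scale (limma adjusted p = 0.0155).

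**Figure D4:**
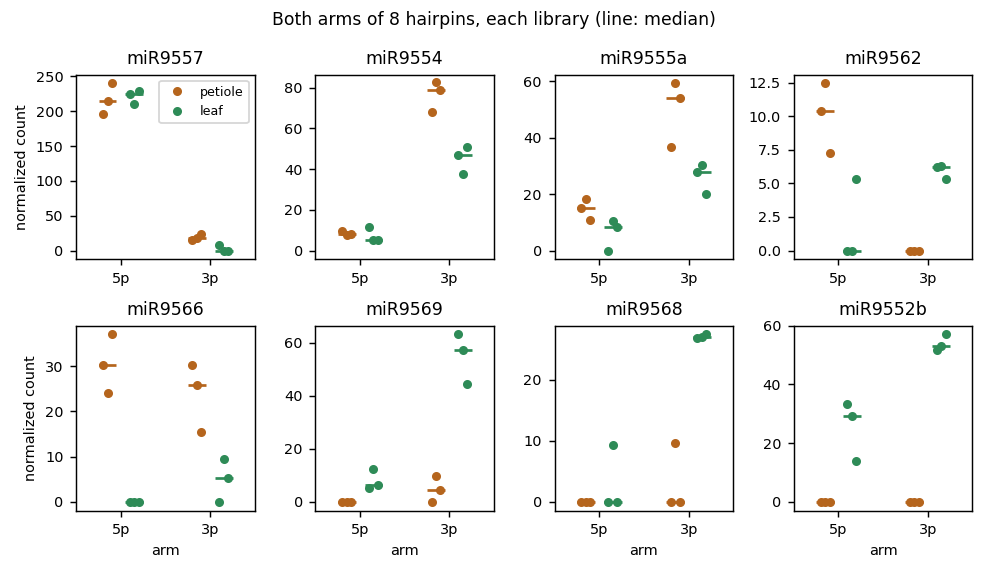
Normalized count (y axis, linear, its own range in each panel) of the 5p and the 3p entry (x axis) of 8 hairpins, with petiole points left of leaf points and a line at each median. The 3p entry is the higher arm of miR9554 and miR9555a in both tissues, the 5p entry that of miR9557, and the miR9562 arms are listed mainly in opposite tissues.

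The 9 further members below the filter were listed in few libraries. The sequences bra-miR9561-5p_L-2R+1, bra-MIR9559-p5 and bra-MIR9555b-p3_2ss12GA20AG each had 5 reads, and bra-miR9555b-5p_L+1R+2_1ss11GA had 6 reads, all in petiole replicate 2 alone. That library held 17 of the table's 68 sequences listed in 1 library alone, against 12 and 15 in the other petiole libraries and 7 to 9 in the leaf libraries. In leaf, bra-MIR9568-p5_1ss6TG was listed in replicate 2 alone, with 9 reads, and bra-miR9560a-5p in replicate 1 alone, with a value of 2.59 that stands for 2.5 reads. The annotated bra-miR9558-3p was listed at 0 in petiole and had 6, 5 and 5 reads in leaf. The other miR9555b forms, bra-miR9555b-5p_L+1R+2_1ss3GA and bra-miR9555b-5p_L+1R+2_2ss11GC21GA, reached at most 8 and 12 reads.

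The arms of a few hairpins paired along their length. A duplex was predicted for each pair of entries from the same hairpin. The 24-base arms of miR9555a formed 21 Watson-Crick pairs without a mismatch, leaving 3 bases at each 3′ end. The miR9554 arms formed 21 pairs in a row, 20 of them Watson-Crick and 1 G-U, with 2 bases over at the 3′ end of the 5p arm. The miR9557 arms formed 18 pairs, 3 of them G-U, with the 2-base 3′ overhang on both arms that is typical of a Dicer product. The miR9569 arms also formed 18 pairs, with 3 unpaired bases inside the 5p arm. In contrast, the paired entries of miR9566 formed 10 pairs at their 3′ ends, those of miR9568 formed 12 pairs, those of miR9552b 5 and those of miR9562 4. The miR9555b entries formed 10 to 14 pairs.

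Some predicted sequences were near copies or complements of members. The complements were singled out after their values were seen. The predicted PC-3p-122957_37, shown because it matches bra-miR9569-5p better than the named 3p arm does, formed 21 Watson-Crick pairs with that sequence without a mismatch:
PC-3p-122957_37: gACACAAGaccaatgataactcat
It had 9.45, 10.6 and 4.52 normalized counts in petiole and 9.34, 13.5 and 0 in leaf, so the tissues overlapped, whereas bra-miR9569-5p itself was listed at 0 in petiole. The predicted PC-3p-83753_56 differed from bra-miR9555a-3p_L+3 at 2 of 24 bases and had 7.09, 2.40 and 9.95 in petiole and 4.15, 7.30 and 4.24 in leaf. The predicted PC-5p-39609_110 was the reverse complement of bra-MIR9562-p3 over 16 bases and had 9.93, 10.6 and 9.49 in petiole and 30.1, 22.9 and 24.9 in leaf, the same order of tissues as that member. Another near copy, PC-5p-273343_11, differed from bra-miR9555a-5p_L-1R+4_1ss21CT at 2 of 23 overlapping bases and was listed in petiole replicate 1 alone, at 12.3. How the authors assigned reads to such near copies was not tested, so the values of miR9555a are uncertain to that extent.

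All 14 hairpins were found by name in the RefSeq annotation of the assembly CAAS_Brap_v3.01. The sources used here do not give the build of the table, so positions are left out and the annotation serves for neighbours alone. Of the 14 loci 8 overlapped a protein-coding gene, 2 an lncRNA gene, 1 another miRNA gene and 3 no other gene. The loci with an lncRNA gene were MIR9566 and MIR9569, and MIR9552B overlapped MIR9552A. Whether a hairpin lies on the strand of its neighbour was not analysed here.

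Among other Brassica-named families, miR5711 to miR5726 had 22 tested sequences, of which 7 were called higher and 14 lower in petiole on the deposited scale, with a median log2 difference of -1.32. With equal totals 7 were higher and 11 lower. The 30 tested sequences named miR9563 had 4 higher and 1 lower, with a median of 0.40, and 24 higher and 1 lower with equal totals. Both sequences of miR1885 and both of miR1140 were called lower on those scales, with 1 of the miR1885 sequences no longer called after quantile normalization, and none of the 4 sequences of miR9408 to miR9411 passed the filter. Whether the members differ from these families was not tested.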

How the data were processed

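Total RNA from petiole and leaf was made into small RNA libraries and sequenced on an Illumina instrument. Per the labels' protocols, ACGT101-miR removed adapter dimers, junk, low-complexity reads, repeats and reads of common RNA families. The sources used here do not name the aligner, build or miRBase release. The deposited table holds normalized counts, a signal value made by the authors per the file headers. The sources used here do not say how the scaling factor was set.

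The table had 1069 entries. The 58 that repeated a sequence had the same values and were merged, leaving 1011. The step of low values was 0.904 to 0.959 in petiole and 1.04 to 1.06 in leaf. Of values under 60 reads, 71.5% to 76.9% were whole within 0.02 reads, so counts were not recovered, no count model was run and no counting interval is given.

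Tests used limma 3.58.1 (R 4.3.3) on log2(value + 1) with a mean-variance trend, a mean of at least 5 set on the deposited values, and Benjamini-Hochberg adjustment over all sequences, all families or all hairpins tested. Differences are petiole minus leaf. Family sums joined miR157, miR165 and miR170 to miR156, miR166 and miR171. Duplexes were predicted with RNAduplex 2.7.2; near copies needed an overlap of at least 16 bases and at most 2 mismatches. Every member is named; the limma steps were tested on simulated data. The alternatives were other scales, pseudocounts and filters, no trend, the replicate number as a block, and each library left out. The members and lists were chosen with earlier results of these data known. No genome was used here.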

Additional observations from a re-analysis of the deposited data

How the results depend on the processing

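The 6 higher calls on the deposited scale became 10 with equal library totals, 4 without the filter and 2 with a mean of at least 20. The 4 lower calls became 7 without the filter and 2 with a mean of at least 20. All 25 members were tested without the filter, and 6 with a mean of at least 20. The lower calls gained without the filter were bra-miR9558-3p, bra-MIR9562-p3 and bra-miR9569-5p. Each was listed at 0 in every petiole library. Leaving out each library gave 2 to 5 higher and 3 to 4 lower calls. The lowest count, 2 higher, came without petiole replicate 2 and without petiole replicate 3. Without petiole replicate 1 or leaf replicate 3 it was 3. Shares over all sequences or families were not taken with other filters, the replicate block or a library left out. Whether these counts changed more than those of all sequences was not tested. The 3 higher and 3 lower family calls were 3 and 3 without any one library. Of these families, the sums of miR9552, miR9566, miR9568 and miR9569 reached the filter through a single tissue. The higher families were 6 with equal totals and 5 with the replicate block and equal totals. The difference in the members' share of counts, petiole minus leaf, was 0.0490 percentage points, and 0.0449 to 0.0568 with a library left out. With quantile normalization bra-MIR9562-p5_2ss17TA18CG and bra-MIR9566-p3 did not pass (adjusted p = 0.0557 and 0.073 in limma).

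Some uncalled differences changed sign. For bra-miR9557-5p the log2 difference was 0.82 with equal totals, 0.76 after quantile normalization, 0.82 with the replicate block and equal totals, and -0.11 to 0.041 with a library left out, above 0 without petiole replicate 1. With a library left out, the miR9557 family sum ranged over -0.013 to 0.15, below 0 without petiole replicate 3, and differences in arm ratio over -0.23 to 1.47 for miR9569 (below 0 without petiole replicate 1), -0.40 to 1.45 for miR9555a (leaf replicate 1), and -1.015 to 1.19 for miR9555b (petiole replicate 3, and -0.33 without leaf replicate 2 or 3). Beyond the construction of each alternative, the cause was not tested.

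No pairing by replicate number was seen: deviations of same-numbered libraries correlated at 0.0728, 0.0067 and 0.0076, and not every library correlated best with its own number. Such correlations cannot show whether same-numbered libraries shared a plant, and the labels do not say. With the replicate number as a block, 4 members were higher and 4 lower, and the share over all sequences was not taken. The higher calls of bra-MIR9562-p5_2ss17TA18CG and bra-MIR9566-p3 and the miR9557 arm ratio did not pass under the block (adjusted p = 0.0597, 0.0588 and 0.0943 in limma). No count model was run, as the values are not raw counts. The 11 members below the filter had at most 12 reads in any library, and the part of depth in this was not tested.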
